A study of Homo sapiens with 4 samples.

Results

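The zinc finger genes that carry a ZNF symbol and a number form one of the largest families of transcription regulators, and 202 of them were expressed in PANC-1 cells at a mean of at least 4 FPKM over all 4 libraries. FPKM counts sequenced fragments relative to transcript length and to the library's total. The 202 members were taken from 494 genes with such a symbol among 16878 listed genes. The remaining 292 had means below 4 FPKM. Members were selected on the mean level over both groups and not on the difference between them, so the levels below are a description, while the differences were open to the test.

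RNA was sequenced from PANC-1, an established human cell line from a pancreatic cancer, 48 h after transfection with siRNA against SIRT1 (siSIRT1, n = 2) or with a control (Control, n = 2). SIRT1 is an NAD-dependent deacetylase of histones and other proteins. All libraries came from this 1 line, and nothing in the labels says that they came from separate cultures, so p-values measure only the spread between these samples, which may be technical. The comparison asks which transcripts respond to loss of SIRT1, here within the zinc finger family.

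Proteins of this family bind nucleic acids through C2H2 fingers, short loops in which a pair of cysteines and a pair of histidines hold a zinc ion. Many also carry a KRAB domain, which recruits the scaffold protein TRIM28 and, through it, the methyltransferase SETDB1 and HP1 proteins to silence transposable elements and genes. KRAB genes expanded by tandem duplication and lie in clusters, most of them on chromosome 19. A minority of the family has few fingers or none and acts elsewhere, for example in ribosome assembly, on the actin cytoskeleton or at the mitotic spindle.

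The targeted gene checked the labels. SIRT1 (GRCh37 chr10:69644414-69678147) was at 10.46 and 10.25 FPKM with Control against 1.80 and 2.05 FPKM with siSIRT1. It fell by 1.96 on the log2(FPKM + 1) scale (SE 0.11, limma with Benjamini-Hochberg adjustment over 12191 genes, adjusted p = 1.33e-05), and 18.6% of the Control level remained. Depth was estimated at 8750000 to 9140000 reads per library. Of 6 epithelial markers, KRT8, KRT18 and KRT19 were at 312.8 FPKM or more in every library, whereas KRT7, EPCAM and CDH1 were between 2.89 and 11.21 FPKM. The fibroblast markers LUM and DCN were at 0 to 0.10 FPKM, HBB was listed at 0, PECAM1 was at 0.59 to 0.75 FPKM and PTPRC at 0.97 to 1.29 FPKM, while CD3E was not listed.

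As a class, the expressed ZNF genes differed little in level between the groups. Their summed level was 2068 and 2074 FPKM with Control against 2146 and 2171 FPKM with siSIRT1, without overlap. Their median was 7.40 and 7.61 FPKM with Control against 7.54 and 7.96 FPKM with siSIRT1. As a share they held 0.514% and 0.522% of all FPKM in Control and 0.503% and 0.532% in siSIRT1, and these ranges overlapped. The median log2 fold change of the 202 members was 0.05, against 0.07 over all genes tested. Of the members, 119 had a log2 fold change above 0.

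Single members did change. At an adjusted p under 0.05 (limma), 31 rose and 12 fell, together 21.3% of the 202, while 37.1% of all 12191 genes tested passed (24% higher and 13.1% lower), and 41.6% of the 9477 genes at 4 FPKM or more. The study's thresholds, a fold above 1.2 and p under 0.001, were applied to the unadjusted p-values of this fit. At them 7 members rose and 5 fell, against 11.2% and 6.89% of all genes in these directions. The paper reports more genes in both directions at these thresholds than this fit gave. Its RNA-seq test is not given in the sources used here. The groups did not overlap in 116 members, 72 higher and 44 lower in siSIRT1, or 57.4%, against 69% of all genes. A change of more than 1.5-fold on the log2(FPKM + 1) scale was reached by 10 members (4.95%), against 11% of all genes, and a change of more than 2-fold by 1 member, ZNF467. The log2 fold changes had an SD of 0.28 over members and of 0.40 over all genes, although the median SE of a single gene was 0.11 and 0.10. Members are not replicates, so no test was made of the class against other genes. Without the first Control library 11 rose and 6 fell, and without the second 16 rose and 8 fell. With median-of-ratios scaling of the libraries the split turned to 21 higher and 24 lower (all genes 16.6% and 16.8%), and with removal of the trend on transcript GC content to 26 and 26, so that the excess of rises over falls among members depended on the scaling.

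**Figure D1:**
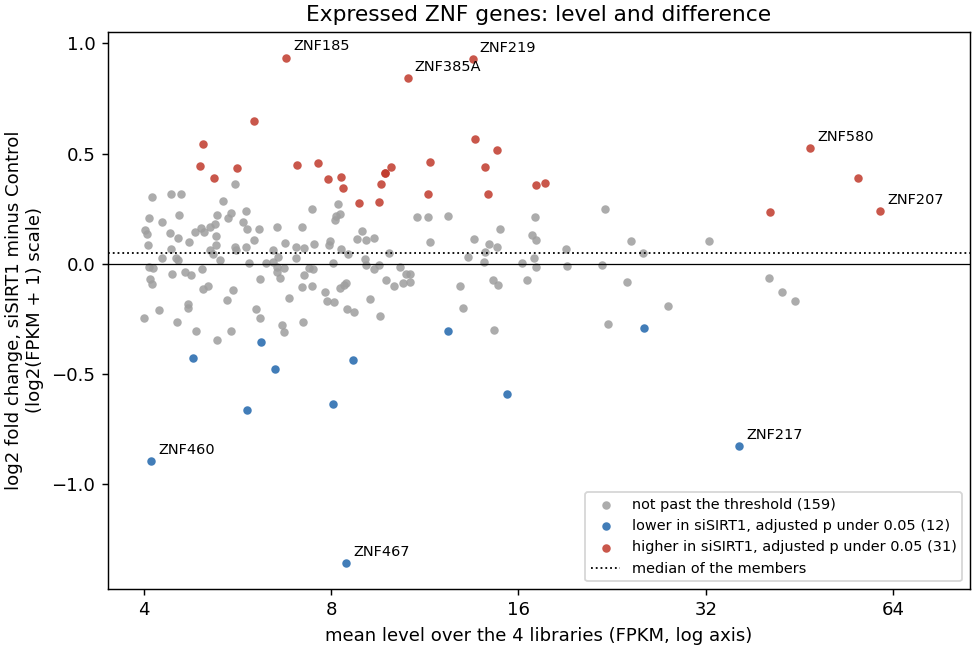
Log2 fold change, siSIRT1 minus Control on the log2(FPKM + 1) scale, of each of the 202 expressed ZNF genes against its mean FPKM over the 4 libraries (log axis). Red points rose (31) and blue points fell (12) at an adjusted p under 0.05, grey points did not pass (159), and the dotted line is the median of 0.05. The fall of ZNF467 was the furthest from 0.

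The level of a gene bears on the chance of a call, so members were set beside all other genes of the same level. Between 4 and 64 FPKM, 39.3% of 8183 other genes were called, 2109 higher and 1107 lower. At 4 to 6 FPKM, 7 of 65 members passed (10.8%), against 27.1% of 1259 other genes. At 6 to 8 FPKM the shares were 17.1% of 41 members and 28.8% of 1042 other genes. At 8 to 16 FPKM, the range with most calls among members (16 higher and 5 lower of 68), they were 30.9% and 34%. At 16 to 32 FPKM they were 15.8% of 19 members and 48.3% of 2117 other genes, and at 32 to 64 FPKM 55.6% of 9 members and 56.1% of 1238 other genes. The median SE of a gene was 0.12 for members and 0.12 for other genes at 4 to 6 FPKM, 0.10 and 0.10 at 8 to 16 FPKM, and 0.08 and 0.07 at 32 to 64 FPKM. The share of members called between 4 and 64 FPKM was below that of the other genes in the fit reported and in 15 of 15 alternatives, where members ran from 8.42% to 26.2% and other genes from 21.6% to 46.3%.

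**Figure D2:**
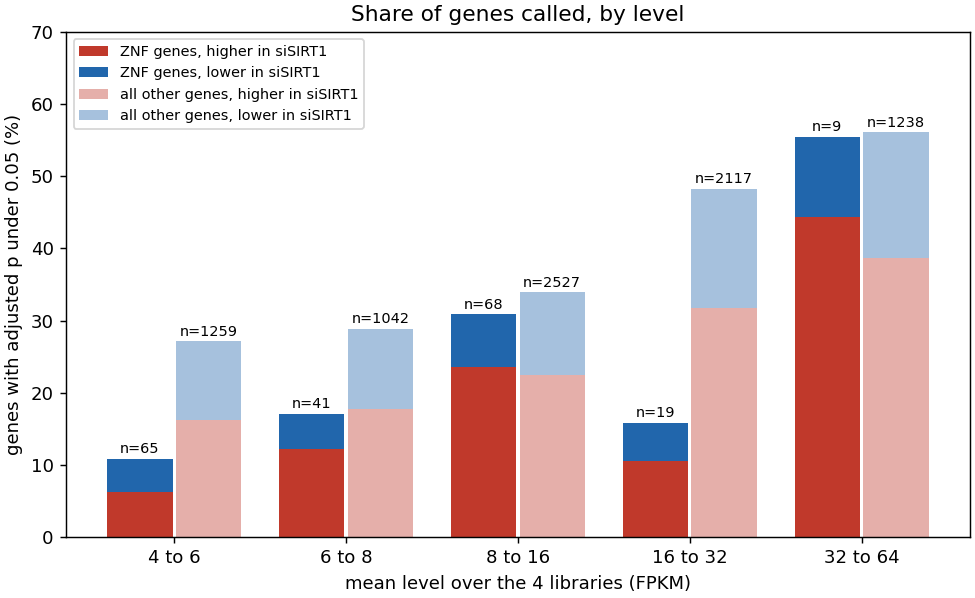
Share of genes with an adjusted p under 0.05 (%, stacked as higher and lower in siSIRT1) by range of mean FPKM, for ZNF genes (full color) and all other genes (pale). ZNF genes were called at 10.8% against 27.1% in the lowest range, and at 55.6% against 56.1% in the highest, which holds 9 ZNF genes.

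Proteins of the members were translated from the annotation and searched for domain patterns. In 199 members a protein could be read, and 194 of these held at least 1 C2H2 finger, with a median of 9 and at most 36 in ZNF142. The proteins of ZNF185, ZNF330, ZNF365, ZNF703 and ZNF839 matched no finger. A KRAB A box was found in 93 members and the SCAN domain, a dimerization module, in 13. The search used fixed letter patterns and can miss a divergent domain, so members counted as without a KRAB A box may still carry one.

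Members with a KRAB A box were changed in few cases. Of 93, 8 rose and 3 fell (11.8%), and of the 106 in which none was found, 23 rose and 9 fell (30.2%). Both shares lay below the 37.1% of all genes tested and the 39.3% of other genes at 4 to 64 FPKM. The median log2 fold change was 0.05 in both sets, with SDs of 0.22 and 0.33. No test was made between the sets. KRAB members were also lower in level, with a median of 6.57 FPKM against 8.90 FPKM, and lower in transcript GC content, 44.1% against 53%. Within 4 to 8 FPKM, 11.1% of 63 KRAB members and 17.5% of 40 others were called. From 8 to 64 FPKM the shares were 13.3% of 30 and 37.9% of 66. The share was the lower one for KRAB members in all 15 alternatives (0% to 17.2%, against 13.2% to 35.8%). The part of GC content in this was not tested beyond the GC adjustment, under which 17.2% and 33% were called.

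Calls were also counted by the number of fingers. Of 40 members with 0 to 4 fingers, 13 rose and 4 fell (42.5%), with a median log2 fold change of 0.11, and this share lay near the 39.3% of other genes at 4 to 64 FPKM. Of 159 members with 5 or more, 18 rose and 8 fell (16.4%). The set with few fingers was also higher in level (median 10.16 against 7.44 FPKM) and in transcript GC content (53.2% against 45.9%), and the part of these in the calls was not tested. Within the latter, the shares were 17.6% at 5 to 9 fingers, 13.6% at 10 to 14 and 19.2% at 15 or more. The share with 0 to 4 fingers was the higher one in 15 of 15 alternatives. Of the 13 SCAN members, 3 rose and 2 fell (38.5%), also near the 39.3% of other genes at 4 to 64 FPKM. The falls were those of ZNF397 and ZNF446.

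**Figure D3:**
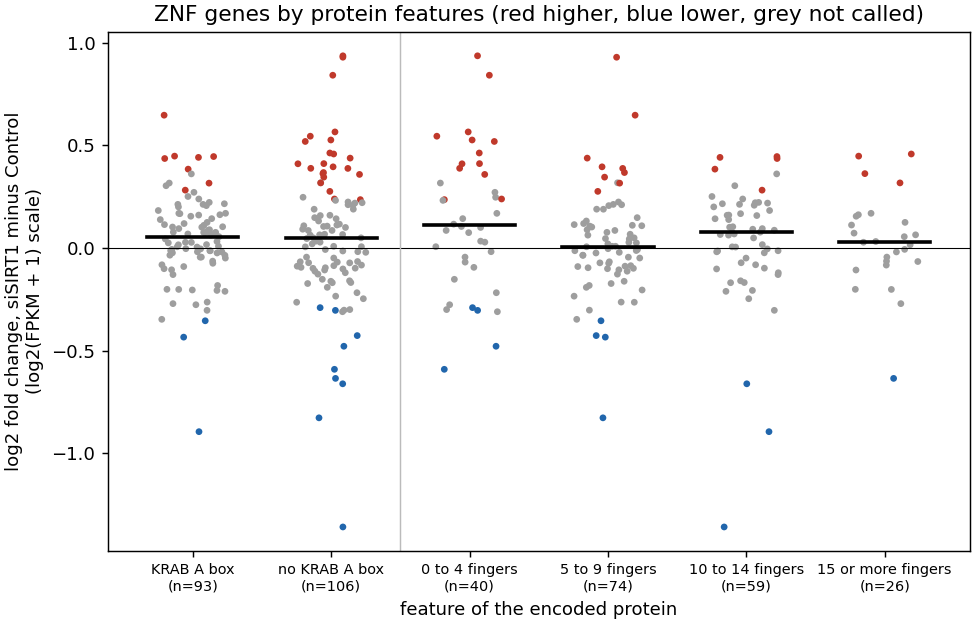
Log2 fold change of each ZNF gene (point) by features of the encoded protein, with the median as a black bar, and red, blue and grey for higher, lower and not called. The medians lay between 0.01 and 0.11, and the points of KRAB genes (SD 0.22) were closer to 0 than those without a KRAB A box (SD 0.33).

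The 3 largest rises belonged to genes whose proteins are not classical KRAB repressors. ZNF185, which encodes a LIM domain protein that associates with actin, was at 4.23 and 4.45 FPKM with Control against 9.57 and 8.86 FPKM with siSIRT1. Both siSIRT1 libraries were about double both Control libraries, from some 175 and 187 reads to 384 and 366. The log2 fold change was 0.94 (SE 0.11, adjusted p = 0.000308). ZNF219, a partner of SOX9 in cartilage, was at 8.82 and 9.16 FPKM with Control against 18.23 and 17.79 FPKM with siSIRT1, again with a wide gap between the groups. It rose by 0.93 (SE 0.08, adjusted p = 0.000103), but its exons overlap those of ARHGEF40 on the other strand, and whether strand was used in the counting is not given in the sources used here. ZNF385A, an RNA-binding cofactor of p53, was at 7.40 and 7.22 FPKM with Control against 14.84 and 12.98 FPKM with siSIRT1, a rise of 0.84 (SE 0.10, adjusted p = 0.000382).

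ZNF622, a cytoplasmic factor in the last steps of 60S ribosomal subunit maturation, was at 10.74 and 10.83 FPKM with Control against 16.28 and 16.58 FPKM with siSIRT1, with replicates closer to each other than the groups. It rose by 0.56 (SE 0.08, adjusted p = 0.000989). ZNF593, whose protein joins pre-60S particles, was at 54.37 and 42.99 FPKM with Control against 69.19 and 58.37 FPKM with siSIRT1. The higher Control value lay just under the lower siSIRT1 value. The rise was 0.39 (SE 0.12, adjusted p = 0.0291, with a range of 6.5e-05 to 0.236 over the alternatives with all libraries). The low end of this range came from pairing libraries by replicate number. The exons of ZNF593 overlap those of ZNF593OS on the other strand. Without the second Control library the log2 fold change of ZNF593 was 0.22 and did not pass (adjusted p = 0.213). ZNF330, a nucleolar protein, rose by 0.54 from 3.47 and 4.28 FPKM to 5.75 and 6.43 FPKM (adjusted p = 0.0105), and ZNF346, which binds double-stranded RNA, rose by 0.46 from 9.54 and 9.55 FPKM to 12.99 and 14.08 FPKM (adjusted p = 0.00421). Groups did not overlap for either.

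The remaining named rises were those of ZNF789, ZNF580, ZNF428, ZNF142, ZNF585B and ZNF182, with log2 fold changes of 0.65, 0.53, 0.52, 0.46, 0.45 and 0.44. For ZNF142 the replicates were nearly equal, at 6.28 and 6.26 FPKM with Control against 9.02 and 8.94 FPKM with siSIRT1 (adjusted p = 0.00651), although its exons overlap those of PLCD4 on the other strand. For ZNF789 they were not, at 3.49 and 5.53 FPKM against 6.83 and 8.17 FPKM (adjusted p = 0.0202). Without the first Control library its log2 fold change was 0.38 and did not pass (adjusted p = 0.132), and with no filter on low values the adjusted p was 0.174, within a range of 0.000492 to 0.174 over the alternatives with all libraries. ZNF585B is uncertain, since 19.8% of the 50-base windows of its transcript also occur in another listed gene, ZNF585A being its closest relative (94.5% protein identity). ZNF428 overlaps SRRM5 on the other strand. Exons overlapped those of another gene in 66 members, of which 17 were called (25.8%), against 19.1% of the 136 without such overlap. The other 19 members that rose had log2 fold changes of 0.24 to 0.44.

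The furthest change in either direction was the fall of ZNF467, a regulator of the choice between adipocyte and osteoblast fates in mesenchymal cells. It was at 13.12 and 12.09 FPKM with Control against 4.34 and 4.26 FPKM with siSIRT1, or from some 336 and 314 reads to 108 and 109. The Control libraries were high and the siSIRT1 libraries low, with a gap far wider than the spread within either group. The level in siSIRT1 was 34.1% of that in Control, a log2 fold change of -1.36 (SE 0.10, 95% confidence interval -1.59 to -1.13, adjusted p = 4.06e-05). It stayed between -1.53 and -1.30 over all alternatives.

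ZNF217, an oncogene of chromosome 20q whose protein works with CtBP corepressors, was the fall with the highest level. It was at 44.71 and 48.33 FPKM with Control against 22.68 and 29.23 FPKM with siSIRT1, so that both siSIRT1 libraries were low but differed from each other. Its log2 fold change was -0.83 (SE 0.11, adjusted p = 0.000673), from some 2332 and 2558 reads to 1149 and 1523. The annotation places exons of another gene model on the other strand. With no filter on low values the adjusted p was 0.0540, within a range of 2.03e-07 to 0.0540 over the alternatives with all libraries. The low end came from pairing libraries by replicate number, although no source says what that number stands for.

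ZNF281, which binds GC-rich promoters and is linked to stemness and to epithelial-mesenchymal transition, was at 18.43 and 18.75 FPKM with Control against 11.04 and 13.04 FPKM with siSIRT1. It fell by 0.59 (SE 0.09, adjusted p = 0.00171). ZNF462, a protein of 33 fingers needed in neural development, was at 9.37 and 10.66 FPKM with Control against 5.39 and 6.84 FPKM with siSIRT1. It fell by 0.64 (SE 0.13, adjusted p = 0.00485). In both genes the first siSIRT1 library was lower than the second, as it was for ZNF217.

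ZNF460, a KRAB gene, had the widest such gap. It was at 5.59 and 5.39 FPKM with Control against 1.44 and 3.99 FPKM with siSIRT1. The siSIRT1 libraries differed from each other by more than the second of them differed from Control. Its log2 fold change of -0.90 therefore had a wide SE of 0.28 (adjusted p = 0.0332) and ran from -1.41 to -0.38 over the alternatives.

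The other falls were smaller. ZNF774 fell by 0.66 from 7.40 and 7.38 FPKM to 3.75 and 4.92 FPKM (adjusted p = 0.00461). ZNF365, whose protein protects the genome under replication stress, fell by 0.48 (adjusted p = 0.0139). ZNF558 fell by 0.43 from 10.11 and 10.12 FPKM to 7.05 and 7.40 FPKM (adjusted p = 0.00723). ZNF397, a SCAN protein found at centromeres, ZNF764, ZNF446 and ZNF581 fell by 0.43, 0.36, 0.30 and 0.29, with adjusted p-values of 0.0406, 0.0289, 0.0269 and 0.0182. Without the first Control library none of these 4 passed (adjusted p-values of 0.317, 0.11, 0.145 and 0.216), and the log2 fold change of ZNF397 was -0.27.

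**Figure D4:**
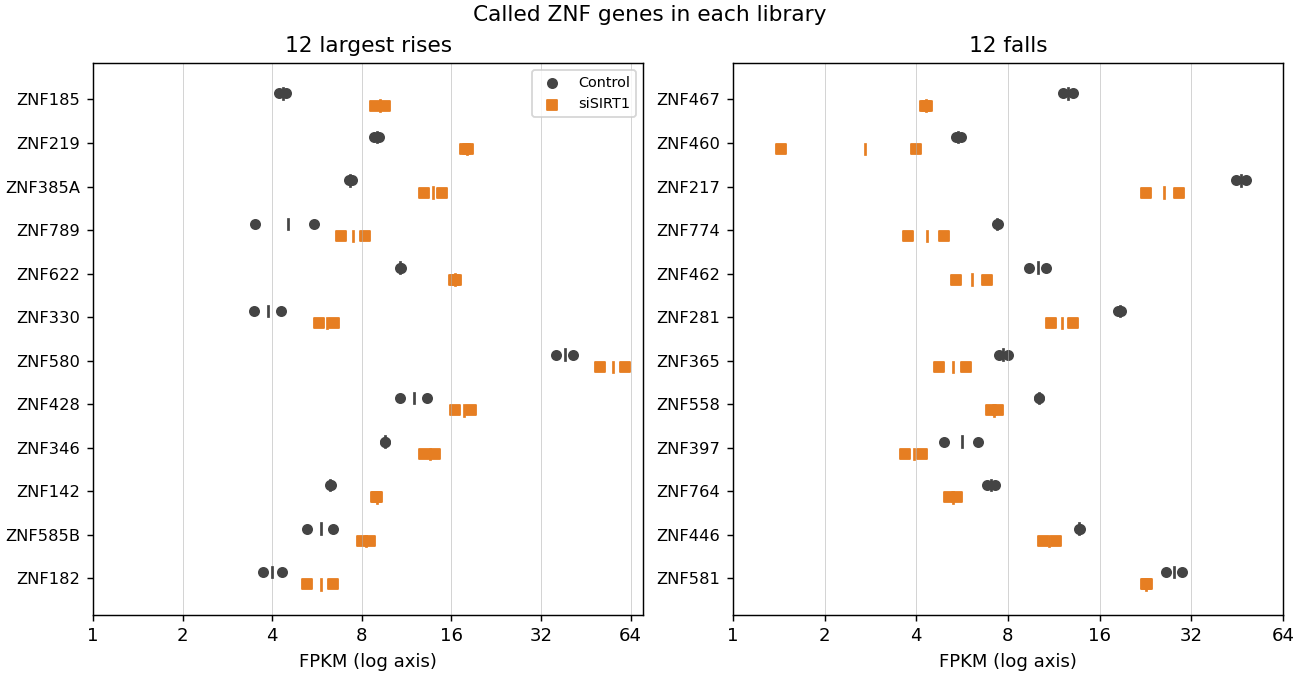
FPKM in each of the 4 libraries (points, log axis) for the 12 ZNF genes with the largest rises and the 12 with the largest falls among those called. Groups without overlap were a condition of this choice, and the siSIRT1 points of ZNF460 (1.44 and 3.99 FPKM) lie furthest apart.

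Of the 43 calls, 14 kept an adjusted p under 0.05 in every other fit to all 4 libraries, and these were 11 rises and 3 falls. The same count was not made over all genes, so neither the 14 nor their directions can be set beside a background share. The study's thresholds, which 7 rises and 5 falls passed with the p-values of this fit, are not counted here. Among the 14 were ZNF185, ZNF219, ZNF385A, ZNF622, ZNF346 and ZNF142, and the falls of ZNF467, ZNF281 and ZNF558. Leaving out any single library, which leaves 1 library in a group, lost some of the 43 calls, with 0 changes of sign. Whether 1 library weighed more than the others was not tested. Of the named calls, those of ZNF182, ZNF207, ZNF330, ZNF397, ZNF446, ZNF460, ZNF558, ZNF581, ZNF585B, ZNF764 and ZNF789 did not pass without the first Control library. Those of ZNF182, ZNF207, ZNF365, ZNF428, ZNF446, ZNF558, ZNF593 and ZNF764 did not pass without the second. Without the first siSIRT1 library ZNF365, ZNF397, ZNF446, ZNF460, ZNF593 and ZNF764 did not pass, and without the second ZNF182, ZNF397, ZNF585B and ZNF789.

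The 5 members with the highest level held 3 rises, in a range where calls were common. At 32 to 64 FPKM, 55.6% of 9 members and 56.1% of 1238 other genes were called. ZNF207, a spindle protein that loads the checkpoint factor BUB3 onto kinetochores, led the class at 55.78 and 56.14 FPKM with Control against 65.43 and 66.93 FPKM with siSIRT1. Its rise of 0.24 had an SE of 0.06 (adjusted p = 0.0124), and its exons overlap those of another gene model on the same strand. It was followed by ZNF593 and ZNF580, which rose by 0.39 and 0.53, and by ZNF768 and ZNF787, which did not pass. ZNF768 was at 47.75 and 46.63 FPKM with Control against 42.58 and 41.11 FPKM with siSIRT1, giving -0.17 on the log2 scale (95% confidence interval -0.31 to -0.03, adjusted p = 0.0604). ZNF787 was at 45.73 and 42.89 FPKM against 43.60 and 37.51 FPKM, with overlapping groups and a log2 fold change of -0.13 (-0.32 to 0.06, adjusted p = 0.259). With median-of-ratios scaling the rises of ZNF207 and ZNF593 did not pass and the fall of ZNF768 did (adjusted p-values of 0.0995, 0.0937 and 0.0201, with ranges over the alternatives of 0.00282 to 0.0995, 6.5e-05 to 0.236 and 0.0029 to 0.147).

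At the other end, the members nearest to the limit of 4 FPKM were ZNF274, whose mean lay at the limit, ZNF33A and ZNF43. ZNF274, which brings SETDB1 to zinc finger gene clusters, was at 4.27 and 4.58 FPKM with Control against 3.51 and 3.64 FPKM with siSIRT1. ZNF33A was at 3.80, 3.69, 4.38 and 4.18 FPKM in the same order, and ZNF43 at 3.58, 4.01, 4.85 and 3.72 FPKM. Just below the limit were ZNF234 (mean 3.998 FPKM), ZNF710 (3.962 FPKM) and ZNF641 (3.95 FPKM).

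Members were also described by their position. Chromosome 19 held 71 of the 201 members with a position, 46 of them with a KRAB A box. Of these 71, 6 rose and 4 fell (14.1%), against 25 and 8 of 130 elsewhere (25.4%) and 42.4% of 488 other genes of chromosome 19 at 4 to 64 FPKM. The longest run, 23 members without a gap of 500000 bases between neighbours (GRCh37 chr19:57702868-58992597), held 18 KRAB members. In it 0 rose and 2 fell (ZNF446 and ZNF460), with 11 log2 fold changes above 0 and 12 below, and a median of -0.01. A run of 10 members (chr19:36705504-38039664), 8 of them KRAB, held 1 rise (ZNF585B), with 7 log2 fold changes above 0 and 3 below. A run of 7 members (chr19:52772840-54083523) had 0 calls, with 5 above 0 and 2 below, between -0.10 and 0.25.

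Calls were also found in other runs, in 1 or both directions. Beside them, 37.1% of all genes tested were called, and 39.3% of other genes at 4 to 64 FPKM. No run was tested against these shares. In chr16:30389427-31095517, 3 of 11 members rose (ZNF689, ZNF668 and ZNF629) and 1 fell (ZNF764). In chr16:3162561-3459364, 2 of 5 rose (ZNF263 and ZNF205). The run of 9 members at chr19:55987984-56672262 held 0 KRAB A boxes and the highest median level, 25.4 FPKM, with rises of ZNF580 and ZNF444 and a fall of ZNF581.

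ZNF580 and ZNF581 are a pair of small genes with overlapping spans on the same strand (GRCh37 chr19:56146382-56154836 and chr19:56146825-56156989). ZNF580 was at 40.96 and 35.90 FPKM with Control against 61.18 and 50.58 FPKM with siSIRT1, and it rose by 0.53 (SE 0.10, adjusted p = 0.00390). ZNF581 was at 29.72 and 26.49 FPKM with Control against 22.69 and 22.81 FPKM with siSIRT1, and it fell by 0.29 (SE 0.08, adjusted p = 0.0182). The groups overlapped for neither gene, and the directions were opposite. On the single transcript per gene that was examined, exons of ZNF580 overlapped those of no other gene. Other transcripts of the pair were not compared. How fragments from their shared span were divided between them is not given in the sources used here, so both values are uncertain to that extent.

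Promoters of the 2 largest rises and 2 largest falls are shown as examples of the windows searched for motifs. RefSeq (GRCh38.p14) gave a promoter for 180 members, and the 250 bases before the start site were searched on both strands for the GC box GGGCGG, the letters bound by SP and KLF factors. Capitals mark the GC box. ZNF185 (chrX:152914182-152914431, plus strand) and ZNF219 (chr14:21104723-21104972, minus strand) held 0 GC boxes, with 3 and 1 CpG dinucleotides. ZNF467 (chr7:149773589-149773838, minus strand) and ZNF460 (chr19:57279732-57279981, plus strand) each held 1, with 30 and 12 CpG dinucleotides.
ZNF185: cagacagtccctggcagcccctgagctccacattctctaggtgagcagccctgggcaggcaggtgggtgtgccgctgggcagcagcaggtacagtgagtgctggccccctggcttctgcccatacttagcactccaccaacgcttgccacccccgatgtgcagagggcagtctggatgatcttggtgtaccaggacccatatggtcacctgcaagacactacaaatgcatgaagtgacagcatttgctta
ZNF219: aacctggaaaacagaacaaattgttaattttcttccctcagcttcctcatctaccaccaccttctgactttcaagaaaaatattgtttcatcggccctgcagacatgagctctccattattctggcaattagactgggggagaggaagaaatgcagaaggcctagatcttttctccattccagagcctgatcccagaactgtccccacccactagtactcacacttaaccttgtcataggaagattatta
ZNF467: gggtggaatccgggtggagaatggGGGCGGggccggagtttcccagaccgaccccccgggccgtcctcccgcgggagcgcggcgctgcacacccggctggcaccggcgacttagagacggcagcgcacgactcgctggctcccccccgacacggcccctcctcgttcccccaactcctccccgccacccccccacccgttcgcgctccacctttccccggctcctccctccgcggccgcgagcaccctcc
ZNF460: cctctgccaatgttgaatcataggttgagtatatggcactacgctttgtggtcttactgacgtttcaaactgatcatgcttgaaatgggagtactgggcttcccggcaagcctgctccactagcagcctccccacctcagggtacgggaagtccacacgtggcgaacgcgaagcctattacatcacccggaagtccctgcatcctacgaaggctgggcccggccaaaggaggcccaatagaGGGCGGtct

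Over the class, 66.1% of members held a GC box, against 68.4% of 9984 genes tested and 42.3% of all 27305 promoters. It stood in 50% of the 24 rises with a promoter and in 100% of the 11 falls. Both sets are those of the fit reported. With median-of-ratios scaling 24 members fell, and the motif shares were not recomputed for that set. Only the first promoter listed for a gene was searched. The letters CCGGAAG, an ETS family motif, stood in 29.4% of members, 16.5% of genes tested and 8.82% of all promoters, and in 16.7% of rises and 18.2% of falls. CCAAT stood in 40.6% of members and 35.3% of genes tested. The cAMP response core TGACGT was found in 11.1% and 10.4%, the E-box CACGTG in 6.67% and 9.04%, and the YY1 letters AAGATGG in 3.89% and 3.47%. The median GC content of the window was 63.6% in members, 62% in rises and 68% in falls. These are matches of letters in a fixed window, and they do not show binding.

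Transcript composition was also set beside the direction of change, without a test. The median GC content of the transcript was 54.1% in the 31 rises, 45.5% in the 12 falls and 45.8% in the 159 members that were not called. The median transcript length was 3217, 3919 and 3971 bases. With the GC trend removed 26 rose and 26 fell, and with the length trend removed 24 rose and 27 fell, so the balance of directions moved with both adjustments.

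Genes through which KRAB proteins repress were examined as a list of 25, all tested, of which 6 rose and 3 fell. This share of 36% was near the 37.1% of all genes tested, and the median log2 fold change was 0.06, against 0.07 over all genes. HDAC1, a histone deacetylase, rose by 0.43 from 75.4 and 79.8 FPKM to 107.4 and 101.9 FPKM (adjusted p = 0.00102). CBX1 and CBX5 both encode HP1 proteins that bind methylated histone H3, and they moved apart. CBX1 rose by 0.30 from 46.4 and 46.8 FPKM to 57.2 and 58.2 FPKM (adjusted p = 0.00444), and CBX5 fell by 0.53 from 26.3 and 27.4 FPKM to 16.9 and 19.8 FPKM (adjusted p = 0.00194).

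EHMT1, a methyltransferase for lysine 9 of histone H3, fell by 0.49 from 15.1 and 15.7 FPKM to 10.8 and 10.6 FPKM (adjusted p = 0.00230), and CHD3, a remodeler of the NuRD complex, fell by 0.24 (adjusted p = 0.0168). UHRF1 and DNMT3B, which act in DNA methylation, rose by 0.32 and 0.39 (adjusted p = 0.00833 and 0.0319), and MPHOSPH8 of the HUSH complex rose by 0.29 (adjusted p = 0.0292). TRIM28 itself was at 228.8 and 232.4 FPKM with Control against 270.3 and 254.6 FPKM with siSIRT1, a rise of 0.19 (adjusted p = 0.0392). With median-of-ratios scaling TRIM28, DNMT3B and MPHOSPH8 did not pass (adjusted p = 0.332, 0.0631 and 0.0958, with ranges over the alternatives of 0.0075 to 0.332, 0.0148 to 0.0833 and 0.0121 to 0.0958). SETDB1 was at 11.8 and 15.1 FPKM against 13.0 and 12.8 FPKM, with a log2 difference of -0.04 (95% confidence interval -0.31 to 0.22, adjusted p = 0.794). The list gave 3 calls without the first Control library and 4 without the second. In bulk RNA, fewer cells that express a gene and less of its RNA per cell cannot be told apart.

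**Figure D5:**
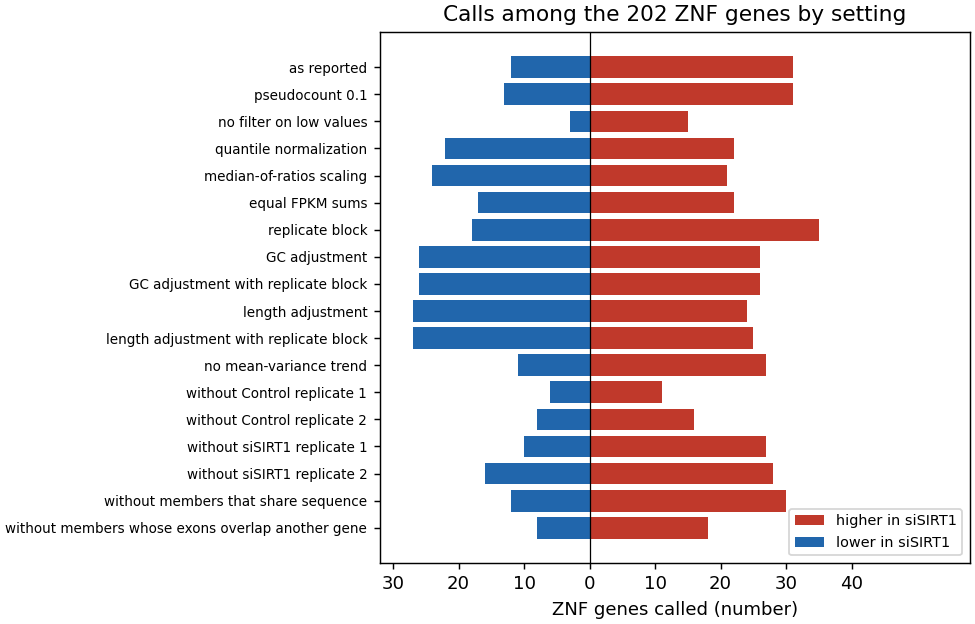
Number of the 202 ZNF genes called higher (red, to the right) and lower (blue, to the left) in siSIRT1 under each way of processing. As reported 31 rose and 12 fell, and the numbers were 21 and 24 with median-of-ratios scaling and 11 and 6 without the first Control library.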

How the data were processed

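Total RNA of 4 PANC-1 libraries, 2 Control and 2 siSIRT1 (48 h), was sequenced. The authors deposited 1 table of FPKM values per library, rounded to 2 decimals, with Entrez identifiers and symbols. The submitters' processing notes name Bowtie2, HISAT, RSEM and ChIPseeker without roles or versions, and the build is not given in the sources used here. FPKM divides by transcript length and library total, so abundant genes that change can shift all others.

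Here limma 3.58.1 in R 4.3.3 was fitted to log2(FPKM + 1) of the 12191 genes whose mean reached 1 FPKM (lmFit, eBayes with a mean-variance trend, two-sided, Benjamini-Hochberg over all genes, threshold 0.05), and tested on simulated data. Fold changes on this scale understate changes of low genes. All 202 members passed the filter. The members, lists and tests were chosen with earlier results of these data known. The named genes were SIRT1, the 12 largest rises and 12 largest falls among called members without overlap, the 5 highest, the 3 on either side of the limit, and the called genes of the repression list with TRIM28 and SETDB1. Others named beside counts were chosen after their values were seen.

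Symbols were matched to RefSeq (GRCh38.p14) for 16846 of 16878 identifiers. Positions, transcript lengths, GC content and proteins came from GENCODE on GRCh37, with 201 of 202 members matched, and identity from BLAST 2.17.0. Promoters alone are on GRCh38.p14. Depth was estimated from steps of 1 read among low values of 64 to 88 genes per library, with median reads per member of 266 to 285 and a lowest value of 49, and covers counting error only. Alternatives were another pseudocount (0.1), no filter, 3 scalings, the replicate block, GC and length adjustments (lowess span 0.3), no trend, other level limits, the study's thresholds (fold above 1.2, p under 0.001, taken as unadjusted), and leaving out each library. Leaving out members with shared sequence or overlapping exons was chosen after seeing the data.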

Additional observations from a re-analysis of the deposited data

How the results depend on the processing

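SIRT1 fell under every alternative (-2.02 to -1.90 when 1 library was left out). Of the members, 31 rose and 12 fell. The rises were 15 with no filter on low values, 7 at a fold above 1.2 and p under 0.001, and 18 among the 136 members without overlapping exons. The falls were 3 with no filter, 22 with quantile normalization, 24 with median-of-ratios scaling, 26 with the GC adjustment, 27 with the length adjustment, 7 among the 96 members of at least 8 FPKM and 5 at the study's thresholds. When each library was left out in turn, rises ran from 11 to 28 and falls from 6 to 16. The median log2 fold change of 0.05 became -0.006 with quantile normalization, -0.030 with median-of-ratios scaling, -0.007 with equal FPKM sums, -0.015 with the GC adjustment and -0.008 with the length adjustment, and ran from 0.038 to 0.083 without single libraries. Over all genes the total was 4521 calls, against totals of 2743 with no filter, 2207 at the study's thresholds and 2691 to 4608 without single libraries. The repression list gave 3 to 8 calls without single libraries. The other zinc finger classes gave 18 calls, 1 with no filter and 3 to 16 without single libraries. ZNF43 changed sign without the first siSIRT1 library (from 0.13 to -0.021) and was at 0.288 without the second. The cause of these moves was not tested, except that fewer libraries or members entered where some were left out.

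Replicate numbers are shared across the groups, but only 2 pairs exist and no source says what a number stands for. Deviations of same-numbered libraries correlated at 0.123 over genes. Blocking on the replicate number, 35 members rose and 18 fell, 53 in all, among them all 43. This block gave the lowest adjusted p-values in the ranges stated for ZNF217, ZNF593, ZNF789 and ZNF207. With the block, the falls were 26 after the GC adjustment and 27 after the length adjustment, and the medians were -0.015 and -0.008. Depths of about 9140000 reads at most limit what can be seen in low members, of which the lowest had some 49 reads in a library.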

Other observations

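In the fit reported, ZNF genes below the limit of 4 FPKM leaned to rises. Among members the balance of directions depended on the scaling, and this lower set was not examined under other scalings. Of 207 tested, at 1 to 4 FPKM, 22 rose and 2 fell (11.6%), with a median log2 fold change of 0.07, whereas 343 rose and 238 fell of the 2714 genes tested at that level (21.4%). Among other zinc finger names, 6 of 36 ZBTB genes rose and 5 fell (30.6%, median -0.02). The KLF and SP factors had 0 rises and 3 falls among 15 tested (20%), with a median of -0.14. Of 13 ZSCAN genes 1 rose (7.69%), of 7 ZKSCAN genes 1 fell (14.3%), and of 13 ZFP genes 2 fell (15.4%). Over all genes tested the share called was 37.1%. No test was made between these classes.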
